A study of Mus musculus with 19 samples.

Results

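Grin2c, Grin2d and Shank3 encode components of the excitatory synapse, and their transcripts were followed in forebrain tissue of EphA4 knockout mice and wild-type littermates that were left undisturbed or kept awake. They were taken by name, as the rows of the deposited table whose only platform gene symbol is one of these 3. The names were chosen with earlier results of these data known. The unadjusted p-values below are therefore not those of genes fixed in advance. Each gene had 1 row, so 3 of 8751 rows, or 3 of the 1121 genes with a symbol of their own, are described here. Of the 8751 rows, 6265 have no gene symbol, 1178 have several, and 346 repeat an earlier row. Shares and percentiles of rows below are therefore mostly over rows without a gene name. The probe sets are 17258153 for Grin2c, 17478028 for Grin2d and 17320553 for Shank3. In the mouse assembly GRCm38.p6 the genes span chromosome 11 from 115249169 to 115267297 (Grin2c), chromosome 7 from 45831883 to 45871194 (Grin2d) and chromosome 15 from 89493013 to 89560261 (Shank3). None of the 3 rows repeated the values of another row.

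NMDA receptors are glutamate-gated ion channels assembled from the obligatory subunit GluN1 and regulatory subunits of the GluN2 or GluN3 families. Grin2c encodes GluN2C and Grin2d encodes GluN2D, the GluN2 subunits that give channels with weak magnesium block. GluN2C is best known from cerebellar granule cells and is also found in forebrain astrocytes and the thalamus, while GluN2D is found in inhibitory interneurons, diencephalon and brainstem and is more abundant early in development. Shank3 encodes a scaffold of the postsynaptic density that is linked to NMDA receptors through proteins of the SAPAP (Dlgap) and PSD-95 families and is prominent in striatum and cortex. EphA4 is a receptor tyrosine kinase for ephrins that acts at synapses and between neurons and astrocytes.

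All mice had a mixed BL6/10 background and were housed with 12 h light and 12 h dark per day. The groups were undisturbed wild-type controls (4 arrays), wild-type mice after 6 h of sleep deprivation (6 arrays), undisturbed EphA4 knockout controls (4 arrays) and EphA4 knockout mice after 6 h of sleep deprivation (5 arrays). The sources used here do not give the design of the knockout allele or the age and sex of the mice. Each of the 19 arrays is labelled as a sample of its own, but no label ties it to an animal of its own. The p-values below therefore reflect sample-to-sample spread, which may in part be technical.

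Values are log2 expression, and array medians over all rows ran from 5.92 to 5.96 in wild-type controls, 5.90 to 6.04 in sleep-deprived wild type, 5.93 to 6.04 in knockout controls and 5.94 to 6.07 in sleep-deprived knockouts. No row is named Epha4, so the genotype labels could not be checked, and none of the 14 forebrain markers has a row of its own, so neither could the tissue label. Precision is limited by the number of arrays, and there is no read depth. In bulk tissue, fewer cells of a type and less RNA per cell cannot be told apart.

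Grin2c had its highest mean in sleep-deprived knockouts and its lowest in knockout controls, 1.22-fold apart, while the wild-type groups lay between them. None of the 3 genes passed the test over all rows in any of the 7 comparisons that the genotype and sleep deprivation design gives. Grin2d and Shank3 differed by at most 0.06 on the log2 scale in each of those comparisons. A gene passed where its p in limma's moderated test, adjusted by the Benjamini-Hochberg method over all 8751 rows, was under 0.05.

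In the wild-type controls Grin2c read 6.05, 6.02, 5.87 and 5.69 on the log2 scale, a mean of 5.91 ± 0.17 (SD, n = 4). The 6 sleep-deprived wild-type arrays ran from 5.70 through a median of 5.80 to 5.87, with a mean of 5.80 ± 0.06 (SD, n = 6). Their range of 0.17 lay wholly within that of the wild-type controls, whose range was 0.36. The knockout controls read 5.66, 5.84, 5.56 and 5.93, a mean of 5.75 ± 0.17 (SD, n = 4). The sleep-deprived knockouts read 6.02, 5.82, 6.16, 6.03 and 6.14, a mean of 6.03 ± 0.13 (SD, n = 5). Of these 5 arrays, 4 were above every knockout control and above every sleep-deprived wild-type array, and the remaining array, replicate 2 at 5.82, fell inside both of those groups. The highest wild-type controls, at 6.05 and 6.02, overlapped the sleep-deprived knockouts.

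Ordered by mean, Grin2c was highest in sleep-deprived knockouts, followed by wild-type controls, sleep-deprived wild type and knockout controls. The gaps between neighbours in this order were 0.13, 0.11 and 0.05 on the log2 scale, each below the within-group SD of 0.13 estimated over the 4 groups (0.129 against 0.131 for the widest gap). That SD is the spread of single arrays, not of a difference between means. In the comparisons of 2 groups the SE of a Grin2c difference was smaller, 0.08 to 0.10. The widest gap was not among those comparisons. The means at the ends of the order were 0.28 apart. Averaged over all arrays, Grin2c lay at the 48.1th percentile of rows, and on single arrays its level minus the array median ran from -0.48 to 0.22. The table holds no detection calls, so whether the probe set stood above background on these arrays could not be tested.

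**Figure D1:**
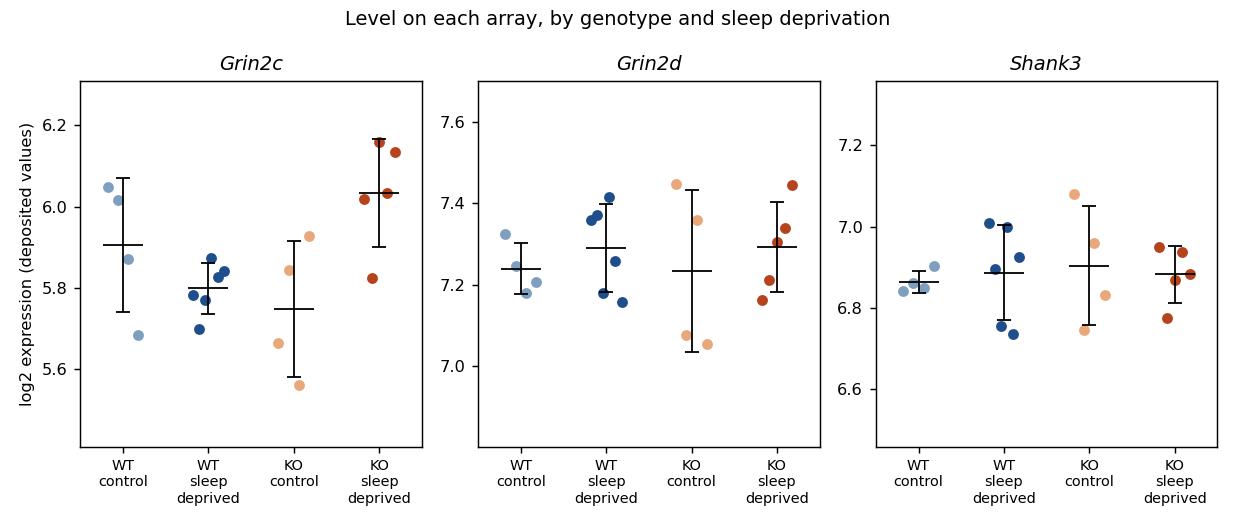
Log2 expression of Grin2c, Grin2d and Shank3 on each of the 19 arrays (points) by group, with the group mean and SD (bars); the 3 panels span the same log2 width but start at different levels. For Grin2c, 4 of the 5 sleep-deprived knockout arrays lie above all knockout controls and all sleep-deprived wild-type arrays. The remaining array lies inside both of those groups, and for all 3 genes the groups overlap in each comparison of 2 groups.

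Sleep deprivation in the knockout asked whether enforced wakefulness changed these transcripts in mice without EphA4. Grin2c had a log2 change of 0.28 ± 0.09 (SE; 95% interval 0.09 to 0.47; 1.22-fold), with an unadjusted p = 0.0055 and an adjusted p = 0.20 in limma's test. Its p was at rank 243 of 8751 rows. Of the 3 genes 0 passed, against 0.263% of all rows (23), and 1 had an unadjusted p under 0.05, against 11.8% of all rows. At its own SE, Grin2c would have needed a log2 change of 0.43 to reach the largest p that passed in this comparison.

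In wild type the corresponding Grin2c change had the opposite sign, a log2 change of -0.11 ± 0.09 (SE; 95% interval -0.29 to 0.08), with an adjusted p = 0.78 in limma's test. There 0 of the 3 genes passed, as did 0 of all rows (0%), and 0 of 3 had an unadjusted p under 0.05, against 7.80% of rows. The interaction, which tests the difference between these responses directly, was 0.39 ± 0.13 (log2, SE; 95% interval 0.13 to 0.65) for Grin2c, with an unadjusted p = 0.0059 and an adjusted p = 0.25 in limma's test. The interaction passed for 0 of 3 genes and for 0.0686% of rows, and it had an unadjusted p under 0.05 for 1 of 3 genes and 11.5% of rows. Averaged over genotypes the Grin2c change was 0.09 ± 0.06 (log2, SE; adjusted p = 0.78), a mean of changes of opposite sign. That averaged comparison passed for 0 of 3 genes and 0.263% of rows, and the unadjusted p was under 0.05 for 0 of 3 genes and 7.93% of rows.

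Between genotypes, Grin2c after sleep deprivation was 1.18-fold as high in the knockout as in wild type (log2 difference 0.23 ± 0.08, SE; 95% interval 0.06 to 0.41), with an unadjusted p = 0.010 and an adjusted p = 0.17 in limma's test. This comparison passed for 0 of 3 genes and 1.68% of rows, and 1 of 3 genes had an unadjusted p under 0.05, against 15.4% of rows. It uses the same sleep-deprived knockout arrays as the comparison within the knockout, so it is not a separate observation of them. In controls the difference was -0.16 ± 0.10 (log2, SE; 95% interval -0.36 to 0.04; adjusted p = 0.90), with 0 of 3 genes and 0% of rows passing, and 0 of 3 genes against 5.44% of rows at an unadjusted p under 0.05. Averaged over conditions it was 0.04 ± 0.06 (log2, SE; adjusted p = 0.90), with 0 of 3 genes and 0.0114% of rows passing, and 0 of 3 genes against 8.73% of rows at an unadjusted p under 0.05. No member had groups without overlap in any of the 4 comparisons of 2 groups. Over all rows the groups did not overlap for 1.63% in sleep deprivation in wild type, 4.39% in sleep deprivation in the knockout, 3.68% in genotype in controls and 2.05% in genotype after sleep deprivation.

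With any single array left out of the 19, the Grin2c change within the knockout ran from 0.22 without knockout control replicate 3 to 0.34 without knockout control replicate 4. Wild-type arrays do not enter this estimate, so leaving any of them out could alter only its SE and p. The adjusted p of the change within the knockout was never below 0.18 in limma's test. The interaction ran from 0.33, again without knockout control replicate 3, to 0.46 without wild-type control replicate 4, and its adjusted p was never below 0.20. The unadjusted p stayed at or under 0.031 for the change within the knockout and at or under 0.018 for the interaction. The Grin2c comparisons that missed an unadjusted p of 0.05 also moved with single control arrays, though each kept its sign. The Grin2c change in wild type ran from -0.06 without wild-type control replicate 1 to -0.18 without wild-type control replicate 4, and was -0.07 without wild-type control replicate 2. The genotype difference in controls ran from -0.09 without knockout control replicate 3 to -0.23 without wild-type control replicate 4. Its unadjusted p in limma's test was 0.029 without wild-type control replicate 4 and 0.044 without knockout control replicate 4, and its adjusted p was never below 0.79. Averaged over genotypes, the sleep deprivation change ran from 0.05 without wild-type control replicate 4, and 0.06 without knockout control replicate 3, to 0.12 without knockout control replicate 4. The genotype difference averaged over conditions ran from 0.0026 without wild-type control replicate 4, and 0.0093 without knockout control replicate 4, to 0.07 without knockout control replicate 3.

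**Figure D2:**
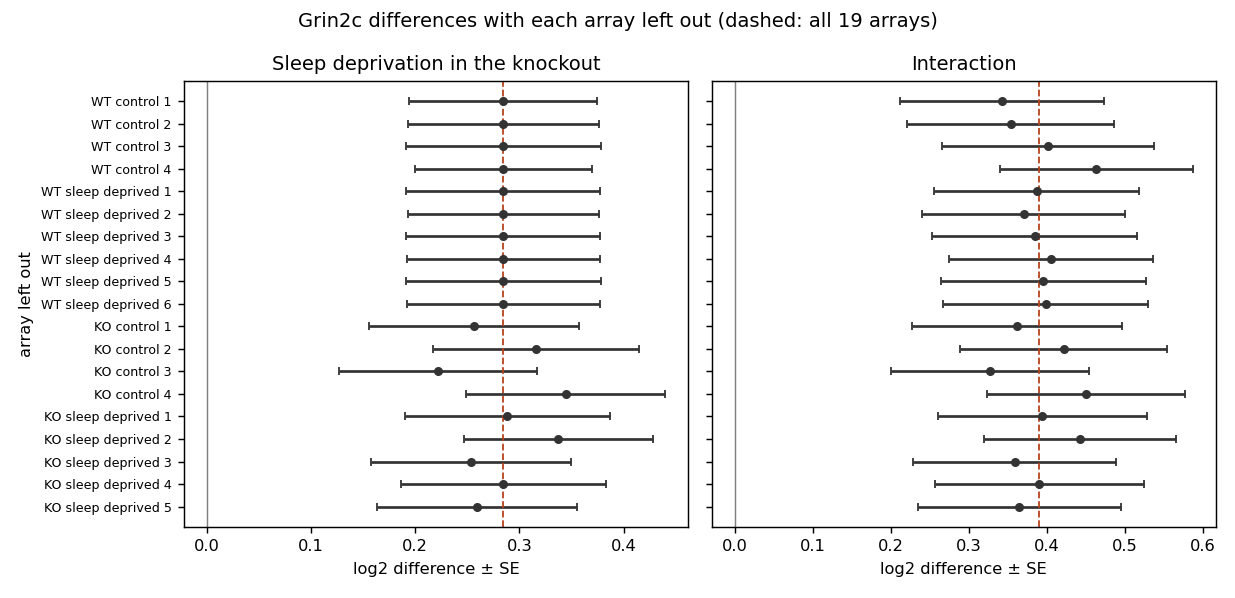
Log2 difference of Grin2c with its SE when each array named at the left is left out, for sleep deprivation in the knockout (left panel) and for the interaction (right panel); the dashed lines mark the values with all 19 arrays, 0.28 and 0.39. Every estimate is positive, from 0.22 to 0.34 and from 0.33 to 0.46. In the left panel, leaving out a wild-type array can alter only the SE, since those arrays do not enter the estimate.

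Cell types that carry Grin2c could be followed only in small part. Of the 11 astrocyte markers, 0 had a row of their own. Of the 12 cerebellar markers, the 1 measured was Neurod1, a neuronal differentiation factor of granule cells that is also made in the forebrain. For Neurod1, sleep deprivation in the knockout came with a value of -0.10 ± 0.11 (log2, SE; adjusted p = 0.77). Knockout against wild type after sleep deprivation gave a log2 difference of -0.22 ± 0.10 (SE), with an unadjusted p = 0.041 and an adjusted p = 0.30 in limma's test. Both were opposite in sign to Grin2c, as were the other Neurod1 values except the genotype difference in controls, -0.06 ± 0.12 (log2, SE; adjusted p = 0.96). The part of cell composition in the Grin2c values was not tested.

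Grin2d, the other NMDA receptor subunit, had group means within 0.06 of each other on the log2 scale. The wild-type controls read 7.32, 7.25, 7.18 and 7.21, a mean of 7.24 ± 0.06 (SD, n = 4). The sleep-deprived wild-type arrays ran from 7.16 through a median of 7.31 to 7.41, a mean of 7.29 ± 0.11 (SD, n = 6). The knockout controls read 7.45, 7.08, 7.36 and 7.05, a mean of 7.23 ± 0.20 (SD, n = 4). These 4 arrays were the most spread, and they held both the highest Grin2d value of the 19 arrays and the 2 lowest. The sleep-deprived knockouts read 7.16, 7.21, 7.30, 7.34 and 7.44, a mean of 7.29 ± 0.11 (SD, n = 5), and lay wholly within the range of the knockout controls.

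For sleep deprivation Grin2d had a log2 change of 0.05 ± 0.09 (SE; 95% interval -0.13 to 0.23) in wild type and of 0.06 ± 0.09 (SE; 95% interval -0.13 to 0.24) in the knockout, with adjusted p = 0.91 and 0.85 in limma's test. As a fold, the 95% interval averaged over genotypes ran from 0.950 to 1.14, so larger changes in either direction lay outside it. The difference between genotypes was -0.01 ± 0.09 (log2, SE; 95% interval -0.20 to 0.19) in controls and 0.0030 ± 0.08 (log2, SE; 95% interval -0.16 to 0.17) after sleep deprivation. The interaction was 0.0082 ± 0.12 (log2, SE; 95% interval -0.25 to 0.27). Grin2d lay at the 76.9th percentile of rows by mean level, and its within-group SD of 0.126 was below the median of all rows, 0.165, and at the 34.9th percentile of the rows with a mean level above the median. Slc32a1, the vesicular GABA transporter of inhibitory neurons, and Abat, a GABA-degrading enzyme, were the 2 of 12 inhibitory neuron markers with a row of their own. For sleep deprivation averaged over genotypes they had log2 changes of -0.0057 ± 0.06 and -0.01 ± 0.06 (SE), with adjusted p = 0.99 for each in limma's test. The Abat average combined values of opposite sign, -0.13 ± 0.08 (log2, SE; adjusted p = 0.71) in wild type and 0.11 ± 0.08 (log2, SE; adjusted p = 0.65) in the knockout. Its interaction was 0.23 ± 0.11 (log2, SE), with an unadjusted p = 0.048 and an adjusted p = 0.43 in limma's test. Its difference between knockout and wild type was -0.16 ± 0.08 (log2, SE; adjusted p = 0.87) in controls and 0.07 ± 0.07 (log2, SE; adjusted p = 0.70) after sleep deprivation. Averaged over conditions, the Abat difference between genotypes was -0.04 ± 0.06 (log2, SE; adjusted p = 0.88). Except for the averages over genotypes and over conditions, the Abat values had the signs of the Grin2c values in the same comparisons. None passed, and their part in the Grin2c values was not tested. The Slc32a1 values were 0.0068 ± 0.08 in wild type and -0.02 ± 0.08 in the knockout (log2, SE). Its interaction was -0.02 ± 0.11 (log2, SE). Its genotype difference was 0.0083 ± 0.08 in controls and -0.02 ± 0.07 after sleep deprivation (log2, SE). All of these Slc32a1 values were opposite in sign to those of Grin2c in the same comparisons, and each was smaller than its SE.

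Shank3, the scaffold gene, had the smallest spread of group means of the 3, with 0.04 on the log2 scale between the highest and the lowest. The wild-type controls read 6.84, 6.86, 6.85 and 6.90, a mean of 6.86 ± 0.03 (SD, n = 4). The sleep-deprived wild-type arrays ran from 6.74 through a median of 6.91 to 7.01, a mean of 6.89 ± 0.12 (SD, n = 6). These 6 arrays lay on either side of the narrow wild-type control range, 3 above it and 2 below it. The knockout controls read 7.08, 6.74, 6.96 and 6.83, a mean of 6.90 ± 0.15 (SD, n = 4), and the sleep-deprived knockouts read 6.95, 6.77, 6.87, 6.94 and 6.88, a mean of 6.88 ± 0.07 (SD, n = 5). The sleep-deprived knockouts again lay wholly within the knockout control range.

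Sleep deprivation gave Shank3 a log2 change of 0.02 ± 0.07 (SE; 95% interval -0.13 to 0.18) in wild type and -0.02 ± 0.08 (SE; 95% interval -0.18 to 0.14) in the knockout, each with an adjusted p = 0.96 in limma's test. Averaged over genotypes the change was 0.00093 ± 0.05 (log2, SE), and as a fold its 95% interval ran from 0.926 to 1.08. The genotype difference was 0.04 ± 0.08 (log2, SE; 95% interval -0.13 to 0.21) in controls and -0.0038 ± 0.07 (log2, SE; 95% interval -0.15 to 0.14) after sleep deprivation, and the interaction was -0.04 ± 0.11 (log2, SE; 95% interval -0.27 to 0.18). The within-group SD of Shank3, 0.102, lay at the 11.9th percentile of all rows and at the 19.2th percentile of the rows with a mean level above the median, where the median SD was 0.147. Shank3 itself lay at the 69.8th percentile of rows by mean level. Shank3 is transcribed as several isoforms, and 1 value per probe set does not separate them. Neither for Shank3 nor for Grin2d does a missed threshold show that the groups are equal.

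**Figure D3:**
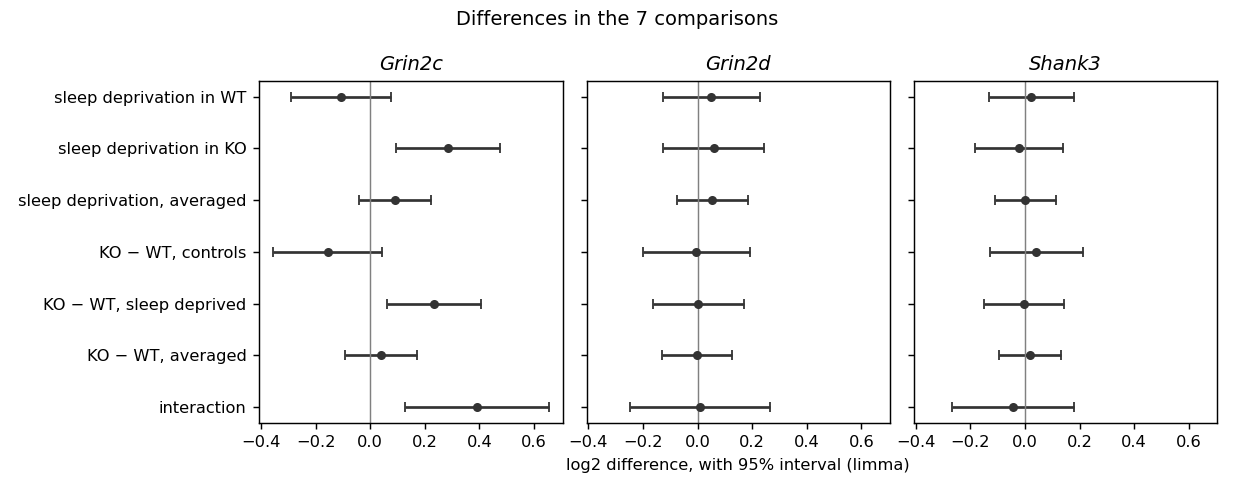
Log2 difference (points) with its 95% interval from limma (bars) for each gene in the 7 comparisons. The intervals of Grin2c leave out 0 for sleep deprivation in the knockout (0.09 to 0.47), for knockout against wild type after sleep deprivation (0.06 to 0.41) and for the interaction (0.13 to 0.65), without adjustment for the number of rows, and all intervals of Grin2d and Shank3 include 0.

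As a list, the 3 genes had a median log2 change of 0.02 for sleep deprivation in wild type and 0.06 in the knockout, beside medians of 0.02 and 0.01 over all rows. Their median for knockout against wild type was -0.0052 in controls and 0.0030 after sleep deprivation, beside 0.01 and 0.0088 over all rows. The median interaction was 0.0082, beside -0.0027 over all rows.

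Other genes of the glutamate synapse were scarce in this table. Of 63 receptor, transporter and postsynaptic genes listed, 5 had a row of their own, and 1 more row carried a listed gene together with another symbol. Besides the 3 genes these were Dlgap2, a SAPAP protein that bridges PSD-95 and Shank scaffolds, and Psd3, an exchange factor for the small GTPase Arf6. Of the 5, 0 passed in either direction in any of the 7 comparisons in limma's test, and Grin2c, in the 3 comparisons given above, was the 1 gene with an unadjusted p under 0.05. Over all rows, 0% to 1.68% passed, depending on the comparison, and 5.44% to 15.4% had an unadjusted p under 0.05. The Dlgap2 change was -0.07 ± 0.07 (log2, SE; adjusted p = 0.82) for sleep deprivation in wild type and 0.08 ± 0.08 (SE, adjusted p = 0.73) in the knockout, and an interaction of 0.15 ± 0.11 (SE, adjusted p = 0.59). Those of Psd3 were -0.09 ± 0.07 (SE, adjusted p = 0.77), -0.04 ± 0.08 (SE, adjusted p = 0.91) and 0.06 ± 0.11 (SE, adjusted p = 0.87). No row is named for GluN1, GluN2A, GluN2B, PSD-95 or another Shank on its own, and these are not analysed here.

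In the deposited values Grin2d and Shank3 were correlated over the arrays, and no correlation with Grin2c passed the test. Over the 19 arrays Grin2d and Shank3 had a Pearson correlation of 0.60 (permutation test, two-sided, p = 0.0063) and a Spearman correlation of 0.55 (permutation p = 0.016), with adjusted p = 0.019 and 0.047 over the 3 pairs. Without the 2 arrays farthest from the median of Grin2d, r was 0.52, without the 2 farthest from that of Shank3 it was 0.57, and over the deviations from the group means it was 0.63. Within the 6 sleep-deprived wild-type arrays it was 0.59, and the other groups hold fewer than 6 arrays. Grin2d also followed the array median itself (r = 0.67 over 19 arrays), as Shank3 did less closely (r = 0.40), and after subtraction of the array medians the correlation of the pair no longer passed. It was then r = 0.42 (permutation p = 0.072, adjusted p = 0.22) and a Spearman correlation of 0.35 (permutation p = 0.15, adjusted p = 0.44), in a test chosen after seeing the data. The design listed no test between the 3 genes, so the tests on the deposited values were an addition to it as well. Grin2c had r = -0.03 with Grin2d (permutation p = 0.90, adjusted p = 0.90) and r = -0.19 with Shank3 (permutation p = 0.44, adjusted p = 0.65), with Spearman correlations of -0.10 (permutation p = 0.69, adjusted p = 0.69) and -0.19 (permutation p = 0.43, adjusted p = 0.65). Without the 2 arrays farthest from the median of Grin2c these were r = -0.29 and -0.21, and without the 2 farthest from the median of the other gene they were 0.14 and -0.09. Within the 6 sleep-deprived wild-type arrays they were -0.09 and 0.19, and after subtraction of the array medians -0.06 and -0.09 (permutation p = 0.82 and 0.72, adjusted p = 0.82 for each). The sign of the Grin2c correlations thus changed with the arrays used. The correlation of Grin2c with the array median was -0.16.

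**Figure D4:**
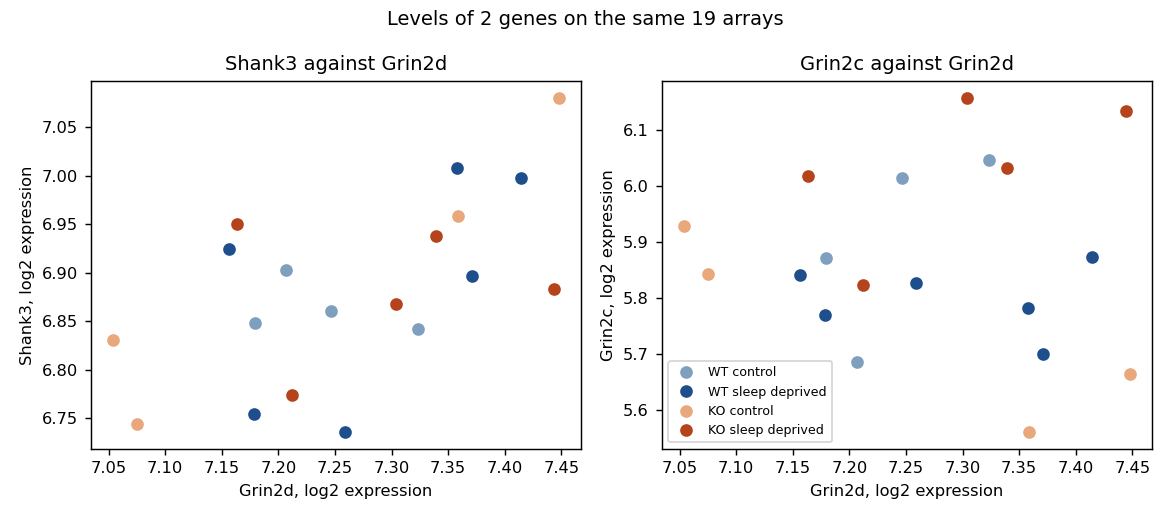
Log2 expression of Shank3 (left panel) and of Grin2c (right panel) against that of Grin2d, 1 point per array, coloured by group. Shank3 tends to be higher on arrays where Grin2d is higher (r = 0.60, and 0.42, which did not pass, after subtraction of the array medians), while r is -0.03 for Grin2c.

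Among 914 rows of other named genes, those whose levels were most like Grin2c over the 19 arrays were Rpl13, a ribosomal protein (r = 0.66), Cisd3, a mitochondrial iron-sulfur protein (r = 0.60), and Tpm4, a tropomyosin (r = 0.58). For Grin2d they were Pigq, an enzyme subunit of glycolipid anchor synthesis (r = 0.81), Egflam, the extracellular matrix protein pikachurin (r = 0.73), and the olfactory receptor pseudogene Olfr1300-ps1 (r = 0.71). For Shank3 they were the T cell receptor segment Trav14d-3-dv8 (r = 0.72), the forkhead factor gene Foxq1 (r = 0.66) and Scamp3, a secretory carrier membrane protein (r = 0.65). These correlations are the highest of many and are descriptions of these 19 arrays, which share their normalization. By the same measure Shank3 ranked 25 among the rows most like Grin2d, and Grin2d ranked 6 among those most like Shank3. With deviations from the group means in place of the values, Pigq (r = 0.83) and Egflam (r = 0.75) were again the closest to Grin2d, and Foxq1 (r = 0.75) and Trav14d-3-dv8 (r = 0.72) stayed among the 3 closest to Shank3. For Grin2c none of the 3 remained, and Ttll8, Lamtor3-ps and Snrpd1 took their place (r = 0.62, 0.61 and 0.57).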

How the data were processed

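The deposited values are log2 expression, 1 per probe set and array, for 19 forebrain samples hybridised to Affymetrix arrays. The submitters' processing notes name RMA, oligo and limma without versions. RMA corrects background, normalizes arrays and summarizes probes. The sources used here give neither the role of each tool nor a genome build. Each array's values were used as deposited, so differences that normalization removed or left cannot be recovered.

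Groups came from sample titles. Genes were named from the platform annotation where a probe set had 1 symbol, and all 3 were found by identifier in the RefSeq table of GRCm38.p6, used for their positions. The 4 group means were fitted with limma 3.58.1 in R 4.3.3 on all 8751 rows and 19 arrays without covariates. Moderated p-values were Benjamini-Hochberg adjusted over all rows (threshold 0.05), and the script was tested on simulated data. Correlations between members used 100000 permutations (scipy 1.17.1), and plots used matplotlib 3.10.9. Genes named were the 3 members, the 3 most alike by Pearson correlation (leaving out predicted genes, clones, microRNAs and small nucleolar RNAs) and measured list genes. Lists covered the glutamate synapse and markers of forebrain, cerebellum, thalamus and midbrain, astrocytes, inhibitory neurons, oligodendrocytes and microglia. The members and lists were chosen with earlier results of these data known. Alternatives covered prior variance, array weights, arrays fitted, scaling, rows tested, the replicate number and leaving out each array.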

Additional observations from a re-analysis of the deposited data

How the results depend on the processing

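Under 600 alternative values of the 21 results (3 genes in 7 comparisons), none passed the threshold, 537 kept their sign and 63 reversed it. Many of the 537 could not have changed sign. The prior variance, the rows tested and a fit of only the groups compared leave the estimate itself unchanged. So does leaving out an array of a group that is not compared, and these alternatives bear only on the p-values. All reversals were of Grin2d or Shank3, in 12 results whose log2 differences lay between -0.04 and 0.06, and the cause was not tested. All Grin2c values kept their sign. Its change in the knockout ran from 0.22 to 0.34 (adjusted p 0.11 to 0.41), its genotype difference after sleep deprivation from 0.20 to 0.29 (adjusted p 0.10 to 0.32) and its interaction from 0.33 to 0.46 (adjusted p 0.17 to 0.40). With array weights, Grin2d gave -0.00012 for sleep deprivation in the knockout, -0.051 for the interaction, and 0.037, -0.014 and 0.012 for genotype in controls, after sleep deprivation and averaged, and Shank3 gave -0.021 for averaged sleep deprivation and 0.0036 for genotype after it. With quantile normalization, Grin2d gave an interaction of -0.0077 and -0.029 for genotype after sleep deprivation, and Shank3 gave -0.017 for averaged sleep deprivation and -0.0071 for averaged genotype. With median centring, Grin2d gave -0.019 for genotype after sleep deprivation, and Shank3 gave -0.0045 for sleep deprivation in wild type, -0.018 for it averaged and -0.012 for averaged genotype. On leaving out single arrays, Grin2d ran from -0.0017 to 0.13 for sleep deprivation in the knockout, -0.077 to 0.055 for genotype in controls, -0.035 to 0.035 after sleep deprivation, -0.037 to 0.029 averaged and -0.052 to 0.079 for the interaction. Shank3 ran from -0.0014 to 0.053 for sleep deprivation in wild type, -0.074 to 0.038 in the knockout, -0.026 to 0.030 averaged, -0.019 to 0.093 for genotype in controls, -0.034 to 0.023 after sleep deprivation, -0.011 to 0.045 averaged and -0.097 to 0.015 for the interaction. With the replicate number as a block, Grin2c gave 0.27 in the knockout (adjusted p = 0.38) and 0.40 for the interaction (adjusted p = 0.34). In that fit with the replicate block, genotype after sleep deprivation gave -0.024 for Grin2d and 0.0038 for Shank3, the Grin2d interaction was -0.019, and no gene passed, while the rows that passed in the knockout numbered 10 in place of 23. Same-numbered arrays were not clearly alike: 0 of 25 such pairs had a correlation of deviations over 0.1 (from -0.22 to 0.08). An array's closest match in another group had its own number in 6 of 50 cases. The labels do not say what the numbers stand for, and these values do not show that the arrays were unpaired. With array medians subtracted, an alternative added after seeing the data, the correlation of Grin2d and Shank3 was 0.42 (adjusted p = 0.22) in place of 0.60. Averaging a gene's rows was not run, since each gene has 1 row. Over all alternatives the rows that passed numbered 6 to 43 for sleep deprivation in the knockout (23 in the fit described), 8 to 39 for it averaged (23), 0 to 3 in wild type (0), 28 to 298 for genotype after sleep deprivation (147), 0 to 3 for averaged genotype (1) and 0 to 41 for the interaction (6), with 0 throughout for genotype in controls.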

Other observations

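Of the remaining marker lists, thalamus and midbrain had 1 measured gene of 9, Gbx2, a homeobox factor of the thalamus, with log2 changes of 0.11 ± 0.06 (SE, adjusted p = 0.70) for sleep deprivation in wild type and -0.06 ± 0.07 (SE, adjusted p = 0.79) in the knockout. Oligodendrocytes had 1 of 9, Mir219a-2, whose log2 change for averaged sleep deprivation was -0.36 ± 0.06 (SE, adjusted p = 0.013). It was also -0.36 ± 0.09 (SE) within wild type and within the knockout, where it did not pass (adjusted p = 0.24 and 0.11). For averaged genotype the Mir219a-2 difference was -0.23 ± 0.06 (log2, SE; adjusted p = 0.28). Microglia had 0 of 6.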
